A study of Homo sapiens with 8 samples.

Results

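The BCL2 family and the receptors of TRAIL hold the switches of apoptotic cell death. From a list of 10 such genes, 9 were found by gene symbol among the 13730 genes of the expression table, and all 9 passed the filter on low values that left 13057 genes for testing. They were the BH3-only genes BBC3 (PUMA), PMAIP1 (NOXA), BCL2L11 (BIM) and BID, the effectors BAX and BAK1, the anti-apoptotic genes BCL2L1 (BCL-xL) and MCL1, and the TRAIL receptor TNFRSF10B (DR5). The tenth, the TRAIL receptor TNFRSF10A (DR4), was not analysed here.

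BCL2 family proteins decide whether the outer membrane of mitochondria is opened. Anti-apoptotic members hold the effectors BAX and BAK1 in check, and BH3-only proteins, many of which are induced by stress, bind the anti-apoptotic members or activate the effectors directly. Death receptors such as DR5 reach the same machinery from the cell surface, through caspase-8 and its cleavage of BID, and DR5 and several BH3-only genes are known targets of the stress factors CHOP and ATF4.

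The study asked, per its design text, how the loss of thioredoxin reductase 1 (TrxR1, encoded by TXNRD1) and the removal of glucose act together on the death of tumour cells. RNA was sequenced from LN229-TAZ(4SA) cells, a human glioblastoma line whose name denotes an altered form of the Hippo pathway coactivator TAZ, which all groups share. The 4 groups were TrxR1 knockout (KO) cells in glucose-deprived medium, control (EV) cells in glucose-deprived medium, KO cells in regular medium and EV cells in regular medium, with 2 libraries each. The labels give neither the duration of deprivation nor the number of KO clones, and nothing says that the libraries of a group came from separate cultures, so each p-value refers to the spread among libraries, which may be technical.

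The 2 libraries of a group are named a and b, names without meaning across groups. Reads summed over the table ran from 70083018 to 107229069 per library, a lower bound of the depth. Levels are given as CPM, reads divided by a library size that, from the values, the authors had adjusted, and a gene was called changed at an adjusted p under 0.05. All 6 markers of the glioblastoma line that were looked for had values, from SOX9 as the lowest at 4.93 to 7.95 CPM to VIM as the highest at 2897 to 3696 CPM. Of the markers of other cell types, CD68 ran from 24.8 to 54.1 CPM and KRT8 from 11.4 to 24.5 CPM, and their part in the results was not tested; the other 7, of leukocytes, endothelium and epithelium, were not analysed here. TXNIP, a gene that glucose induces, fell by 3.23 on the log2 scale in KO cells and fell by 3.04 in EV cells in the libraries read as glucose-deprived. TXNRD1 itself, counted as a gene total that does not show an edited transcript, differed by -0.08 ± 0.04 on the log2 scale between KO and EV cells in regular medium (SE, adjusted p = 0.192) and without glucose was lower in KO cells, by -0.47 ± 0.04 (adjusted p = 1.97e-05).

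Promoter sequences are shown for the 3 BH3-only genes that rose in glucose-deprived medium. Each line is the 300 bases around a RefSeq transcription start on GRCh38.p14, 250 before and 50 after it, read 5′ to 3′ on the gene's strand. Capitals mark a match to a stress-related motif: the core of the cAMP response element bound by ATF factors (TGACG or its reverse complement) in PMAIP1 at chr18:59899746-59900045 (plus strand), the E-box CACGTG in BBC3 at chr19:47232618-47232917 (minus strand), and the FOXO motif GTAAACA in BCL2L11 at chr2:111120664-111120963 (plus strand).
PMAIP1: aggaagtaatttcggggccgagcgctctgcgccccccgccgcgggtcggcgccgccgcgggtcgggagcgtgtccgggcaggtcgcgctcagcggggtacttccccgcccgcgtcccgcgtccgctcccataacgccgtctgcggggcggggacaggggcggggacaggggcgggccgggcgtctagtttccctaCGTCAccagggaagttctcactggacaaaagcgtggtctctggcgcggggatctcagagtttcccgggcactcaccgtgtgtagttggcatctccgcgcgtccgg
BBC3: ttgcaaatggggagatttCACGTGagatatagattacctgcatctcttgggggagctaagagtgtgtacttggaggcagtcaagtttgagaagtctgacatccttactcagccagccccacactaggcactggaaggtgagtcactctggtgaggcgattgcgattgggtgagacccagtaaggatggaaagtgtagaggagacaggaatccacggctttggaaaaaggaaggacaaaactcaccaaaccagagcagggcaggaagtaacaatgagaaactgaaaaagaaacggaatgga
BCL2L11: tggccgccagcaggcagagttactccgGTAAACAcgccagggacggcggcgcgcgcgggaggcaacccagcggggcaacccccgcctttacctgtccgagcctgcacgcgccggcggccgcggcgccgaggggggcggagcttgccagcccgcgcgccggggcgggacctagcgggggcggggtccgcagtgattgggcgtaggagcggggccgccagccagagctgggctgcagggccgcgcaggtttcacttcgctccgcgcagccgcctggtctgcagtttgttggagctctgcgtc

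A match to a motif is a description of these letters, not a bound site. Counted from the transcription start, the match lay at -55 in PMAIP1, -232 in BBC3 and -223 in BCL2L11. Both strands of the promoters of 7 members (12 entries) were searched; MCL1 and TNFRSF10B were not searched. A member is listed if any of its entries matched (BID has 5 entries and BCL2L1 has 2), whereas the shares are per promoter entry. TGACG was present in PMAIP1, BAX and BCL2L1 and in 24.6% of the 35116 promoters of the RefSeq table. CACGTG was present in BBC3, BID and BAX and in 7.26% of promoters; 1 of its matches in BAX overlapped TGACG. The FOXO motif GTAAACA was in 3.42% of promoters, and among the members in BCL2L11. The antioxidant element TGACNNNGC was present in BAX and BCL2L1 and in 13.3% of promoters. In BAX it overlapped another of the CACGTG matches. BAX, BID and BCL2L1, which thus also hold some of these motifs, had lower levels in glucose-deprived than in regular medium. No member promoter held the full cAMP response element TGACGTCA (1.85% of promoters), which contains TGACG, the C/EBP-ATF motif TGATGNAA (3.62%) or the heat shock element (0.49%).

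The members spanned a wide range of levels. Per kilobase of exon, MCL1 had the highest mean level in all 4 groups: 130.2 ± 0.43 CPM per kb in KO cells and 126 ± 1.3 CPM per kb in EV cells without glucose, and 120.2 ± 3.9 CPM per kb in KO cells and 123 ± 1.5 CPM per kb in EV cells in regular medium (SD, n = 2 each). In regular medium MCL1 was followed by BAX, BCL2L1, TNFRSF10B, PMAIP1, BAK1, BID, BCL2L11 and BBC3 in both KO and EV cells, a descending order without overlap of neighbouring SDs. In glucose-deprived medium TNFRSF10B stood second, at 70.8 ± 0.82 CPM per kb in KO cells and 73.4 ± 1.05 CPM per kb in EV cells. PMAIP1 came next in deprived KO cells, at 64.8 ± 1.3 CPM per kb against 59.5 ± 1.2 CPM per kb for BAX, whereas BAX stood above PMAIP1 in deprived EV cells, at 61.3 ± 0.97 against 54.0 ± 0.75 CPM per kb. BCL2L11 and BBC3 were the lowest members per kilobase in every group, and in deprived EV cells they did not differ beyond their spread (3.17 ± 0.042 CPM per kb for BCL2L11 and 3.32 ± 0.28 CPM per kb for BBC3). Exon length was the union over protein-coding transcripts of the basic GENCODE set, 6093 bases for BCL2L11 and 2093 bases for BBC3. Undivided, BCL2L11 had 19.3 CPM and BBC3 6.94 CPM in deprived EV cells, so levels per kilobase rest on these lengths.

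**Figure D1:**
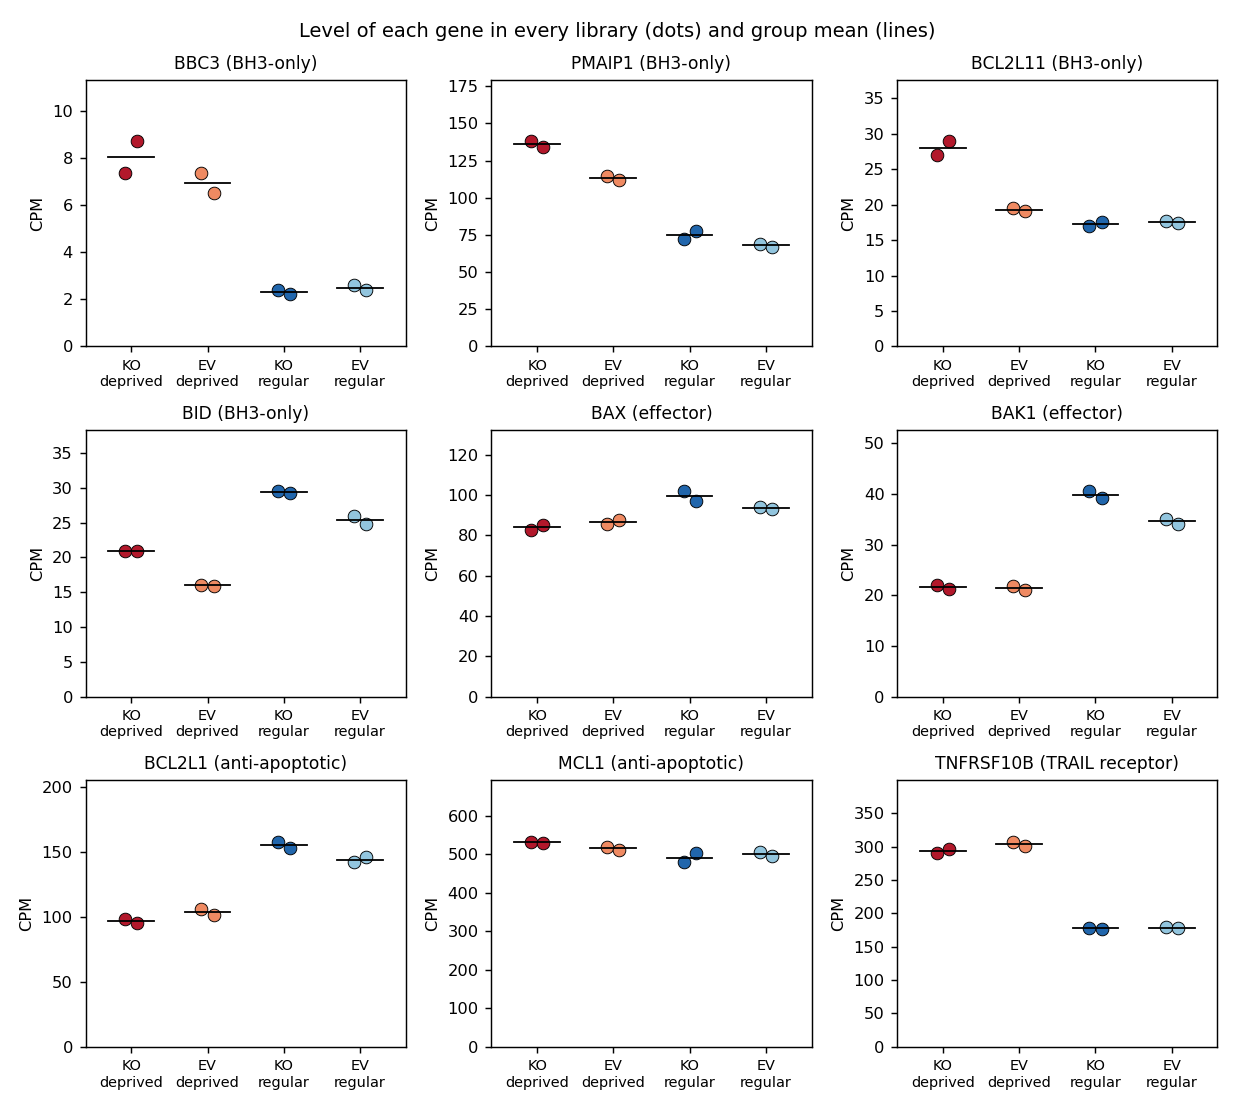
Level in CPM (vertical axes, starting at 0) of the 9 genes in the 8 libraries, with 1 panel a gene, 1 dot a library and a line at the group mean. BBC3, PMAIP1 and TNFRSF10B stand higher in the glucose-deprived groups, BID, BAK1 and BCL2L1 stand lower there, and BCL2L11 is highest in deprived KO cells (27.1 and 28.9 CPM).

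In glucose-deprived medium, KO cells held more mRNA of 3 of the 4 BH3-only genes than EV cells did: BCL2L11 was 1.45-fold higher, BID 1.31-fold and PMAIP1 1.20-fold. No member was called lower. The effectors, the anti-apoptotic genes and TNFRSF10B were not called in this comparison. The 3 calls among 9 members stood against a background in which 19.6% of all genes tested were called, 9.04% higher and 10.6% lower. Without KO library b, EV library a or EV library b of glucose-deprived medium, 1540, 892 and 852 of all genes were called in place of 2561, and the count of 3 members stood. CPM is a relative level, and in these bulk libraries fewer cells of a kind and less RNA per cell cannot be told apart. The median log2 fold change was 0.04 over the 9 members and -0.01 over all genes, and 0.33 over the BH3-only genes.

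BCL2L11 (chr2:111119378-111168447, plus strand), whose product BIM binds all anti-apoptotic BCL2 proteins and can activate BAX, showed the widest gap. It had 27.1 and 28.9 CPM in deprived KO cells, against 19.5 and 19.1 CPM in deprived EV cells. Both KO libraries lay above both EV libraries, and the difference was 0.53 ± 0.05 on the log2 scale (SE, adjusted p = 1.18e-04). In regular medium BCL2L11 had 17.0 and 17.6 CPM in KO cells, against 17.7 and 17.4 CPM in EV cells. There the groups overlapped, with a log2 difference of -0.02 ± 0.05 (95% confidence interval -0.14 to 0.09, adjusted p = 0.838). The knockout difference was larger without glucose than with it by 0.56 ± 0.07 (95% confidence interval 0.39 to 0.72, adjusted p = 0.00276), and BCL2L11 was the single member for which this interaction passed, where 4.31% of all genes passed (2.31% higher and 2.01% lower; 563 genes, and 147 to 1579 when 1 library was left out). BCL2L11 shares 727 exon bases with MIR4435-2HG, a long noncoding RNA on the opposite strand, and the library kit does not mark strand. MIR4435-2HG had 28.4 and 26.0 CPM in deprived KO cells, against 26.5 and 26.3 CPM in deprived EV cells (log2 difference 0.04 ± 0.05, adjusted p = 0.578), so that the neighbour's own level differed by less than the 1.45-fold of BCL2L11; how the shared reads were assigned was not tested.

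BID (chr22:17734138-17774770, minus strand) encodes the BH3-only protein that caspase-8 cleaves, linking death receptors to mitochondria. It had 21.0 and 20.9 CPM in deprived KO cells, against 16.1 and 15.9 CPM in deprived EV cells. The groups did not overlap, and BID was 0.39 ± 0.05 higher on the log2 scale in KO cells (adjusted p = 4.51e-04). In regular medium BID had 29.5 and 29.3 CPM in KO cells, against 25.9 and 24.8 CPM in EV cells, again without overlap. That difference of 0.21 ± 0.05 passed as well (adjusted p = 0.0228). It no longer passed without either EV library of regular medium (adjusted p = 0.119 without a and 0.222 without b) or without either KO library (0.0778 without a and 0.0519 without b). The knockout differences of the 2 media were not shown to differ (interaction 0.18 ± 0.07, adjusted p = 0.140).

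PMAIP1 (chr18:59899948-59904306, plus strand) encodes NOXA, which binds MCL1 and promotes its breakdown. It had 138 and 134 CPM in deprived KO cells, against 114 and 112 CPM in deprived EV cells. Both KO libraries lay above both EV libraries, and the log2 difference was 0.26 ± 0.04 (adjusted p = 0.00275). In regular medium it had 72.1 and 77.9 CPM in KO cells, against 69.0 and 67.0 CPM in EV cells, a log2 difference of 0.14 ± 0.04 that did not pass (95% confidence interval 0.04 to 0.24, adjusted p = 0.0786). It passed without KO library a of regular medium (0.20, adjusted p = 0.0336). The interaction was 0.12 ± 0.06 (adjusted p = 0.244).

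BBC3 (chr19:47220822-47232766, minus strand) encodes PUMA, a BH3-only protein that is induced by stress. It had 7.35 and 8.70 CPM in deprived KO cells, against 7.35 and 6.53 CPM in deprived EV cells. The libraries overlapped, and the log2 difference of 0.21 ± 0.11 did not pass (95% confidence interval -0.03 to 0.45, adjusted p = 0.209). In regular medium BBC3 had 2.41 and 2.25 CPM in KO cells, against 2.59 and 2.41 CPM in EV cells (log2 difference -0.10 ± 0.11, adjusted p = 0.605). BBC3 was the least abundant member, with 197 to 775 reads a library, and had the widest standard error. It shares 80 and 76 exon bases with the microRNA genes MIR3190 and MIR3191, which were not analysed here.

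**Figure D2:**
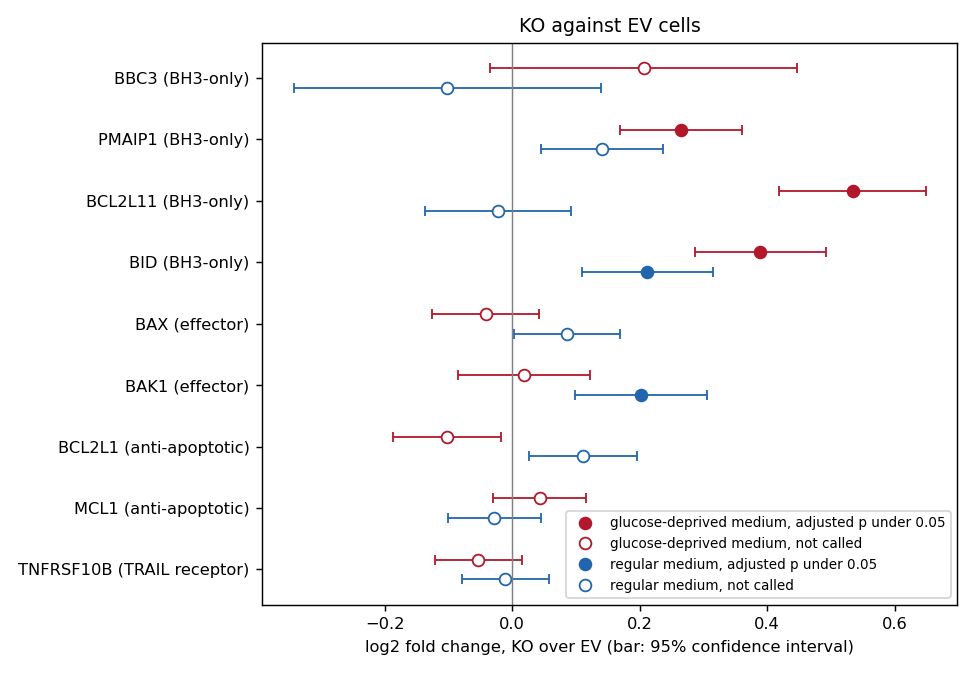
Log2 fold change of KO over EV (horizontal axis) for the 9 genes in glucose-deprived and regular medium, with bars for the 95% confidence interval of the limma fit and filled dots for an adjusted p under 0.05. BCL2L11, BID and PMAIP1 are filled in glucose-deprived medium at 0.53, 0.39 and 0.26, and BID and BAK1 in regular medium at 0.21 and 0.20.

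The effector BAK1 (chr6:33572547-33580293, minus strand), which sits on the mitochondrial membrane and forms pores in it, differed with the knockout in regular medium. It had 40.5 and 39.1 CPM in KO cells, against 35.1 and 34.1 CPM in EV cells, and was 1.15-fold higher in KO cells (log2 0.20 ± 0.05, adjusted p = 0.0284). With BID it made 2 calls among 9 members in regular medium, both higher, where 7.25% of all genes were called, 3.87% higher and 3.38% lower. The BAK1 call ended without the variance trend (adjusted p = 0.0626), without EV library a or b of regular medium (0.161 and 0.229) or of glucose-deprived medium (0.0539 and 0.0537), and without KO library a of regular medium (0.108). Without EV library a or b of regular medium no member was called, where 168 and 198 of all genes were, in place of 946. In glucose-deprived medium BAK1 had 22.1 and 21.3 CPM in KO cells, against 21.8 and 21.0 CPM in EV cells, overlapping values with a log2 difference of 0.02 ± 0.05 (95% confidence interval -0.09 to 0.12, adjusted p = 0.814). The interaction was -0.18 ± 0.07 (adjusted p = 0.132). BAK1 shares 91 exon bases with the pseudogene GGNBP1 on the opposite strand, which was not analysed here.

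BAX (chr19:48954815-48961798, plus strand), the effector that moves from the cytosol to mitochondria, had 82.9 and 85.3 CPM in deprived KO cells, against 85.6 and 87.5 CPM in deprived EV cells. The log2 difference was -0.04 ± 0.04 (95% confidence interval -0.13 to 0.04, adjusted p = 0.475). In regular medium it had 102 and 97.2 CPM in KO cells, against 94.3 and 93.1 CPM in EV cells, a log2 difference of 0.09 ± 0.04 (adjusted p = 0.199). Neither comparison passed, although the libraries did not overlap in either, which held for 61.1% of all genes in glucose-deprived medium and 55.4% in regular medium.

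Of the anti-apoptotic genes, neither was called between KO and EV cells. BCL2L1 (chr20:31664452-31723989, minus strand) had 98.3 and 95.3 CPM in deprived KO cells, against 106 and 102 CPM in deprived EV cells (log2 difference -0.10 ± 0.04, 95% confidence interval -0.19 to -0.02, adjusted p = 0.0858). In regular medium it had 158 and 153 CPM in KO cells, against 142 and 147 CPM in EV cells (log2 difference 0.11 ± 0.04, adjusted p = 0.109). KO cells thus lay below EV cells in one medium and above them in the other, and the interaction of -0.21 ± 0.05 stood just above the threshold (adjusted p = 0.0536). With median-of-ratios scaling it stood at -0.22 and passed (adjusted p = 0.0448), as it did without KO library a of glucose-deprived or KO library b of regular medium. BCL2L1 gives rise to the long anti-apoptotic form BCL-xL and the short pro-apoptotic form BCL-xS by splicing, which a total per gene does not separate, and it shares 1424 exon bases with the antisense RNA ABALON, which was not analysed here.

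MCL1 (chr1:150574551-150579738, minus strand), a short-lived protein that guards BAK1 and is bound by NOXA, had 533 and 530.5 CPM in deprived KO cells, against 519.8 and 512 CPM in deprived EV cells (log2 difference 0.04 ± 0.03, adjusted p = 0.391). In regular medium it had 479 and 502 CPM in KO cells, against 505 and 496 CPM in EV cells (log2 difference -0.03 ± 0.03, adjusted p = 0.636). The 95% confidence intervals ran from -0.03 to 0.12 in glucose-deprived medium and from -0.10 to 0.04 in regular medium. MCL1 also has a short pro-apoptotic splice form that its total includes.

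TNFRSF10B (chr8:23020133-23069179, minus strand), the receptor through which TRAIL triggers caspase-8, was not called between KO and EV cells. It had 291 and 296 CPM in deprived KO cells, against 308 and 301 CPM in deprived EV cells (log2 difference -0.05 ± 0.03, adjusted p = 0.251), and 178 and 177 CPM in KO cells, against 179.8 and 178 CPM in EV cells, in regular medium (-0.01 ± 0.03, adjusted p = 0.865). The interaction was -0.04 ± 0.04 (95% confidence interval -0.14 to 0.05, adjusted p = 0.597).

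With glucose removed, log2 changes of the members ran from -0.87 to 1.77 in KO cells and from -0.69 to 1.46 in EV cells, and most members were called in both. In KO cells 5 of 9 members rose and 4 fell, where 73.3% of all genes were called (36.5% higher and 36.8% lower). In EV cells 4 rose and 4 fell, where 76.2% of all genes were called (37.5% higher and 38.7% lower), so that a call by itself did not set a member apart from most genes. The libraries of the 2 media did not overlap for any of the 9 members in either cell type, which held for 83.6% of all genes in KO cells and 90.5% in EV cells. Among the 6 pro-apoptotic genes, 3 rose and 3 fell in each cell type: BBC3, PMAIP1 and BCL2L11 rose, and BID, BAX and BAK1 fell.

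BBC3 showed the widest response. It had 7.35 and 8.70 CPM in deprived KO cells, against 2.41 and 2.25 CPM in KO cells in regular medium, a 3.41-fold rise (95% confidence interval 2.89 to 4.03, adjusted p = 1.37e-07). In EV cells the rise was 2.76-fold (2.33 to 3.26, adjusted p = 5.17e-07). The difference between the cell types did not pass (interaction 0.31 ± 0.15, adjusted p = 0.250). Although it rose most, BBC3 remained the lowest member per kilobase in deprived KO cells, at 3.83 ± 0.46 CPM per kb.

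PMAIP1 rose 1.82-fold in KO cells, to 138 and 134 CPM in glucose-deprived medium against 72.1 and 77.9 CPM in regular medium (adjusted p = 3.12e-08). In EV cells it rose 1.67-fold, to 114 and 112 CPM against 69.0 and 67.0 CPM (adjusted p = 8.77e-08). BCL2L11 rose 1.62-fold in KO cells (95% confidence interval 1.49 to 1.75, adjusted p = 6.00e-07) and 1.10-fold in EV cells (1.02 to 1.19, adjusted p = 0.0312). The call in EV cells was lost without any 1 of the 4 EV libraries (adjusted p of 0.0740 to 0.135). The overlapping MIR4435-2HG fell by 0.53 in KO cells and fell by 0.44 in EV cells, opposite to BCL2L11.

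BID, the fourth BH3-only gene, went the other way. It fell to 0.71 of its regular level in KO cells and to 0.63 of it in EV cells (log2 -0.49 ± 0.05 in KO cells, adjusted p = 4.04e-06, and -0.66 ± 0.05 in EV cells, adjusted p = 3.39e-07). BAK1 fell by 0.87 on the log2 scale in KO cells, to 22.1 and 21.3 CPM against 40.5 and 39.1 CPM in regular medium (adjusted p = 4.88e-08), and by 0.69 in EV cells (adjusted p = 2.60e-07). BAX changed by -0.24 ± 0.04 in KO cells (adjusted p = 1.63e-04) and by -0.11 ± 0.04 in EV cells (adjusted p = 0.0170). The BAX call in EV cells was lost without EV library a of glucose-deprived medium (adjusted p = 0.111) and without EV library a or b of regular medium (0.104 and 0.0636).

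The anti-apoptotic genes parted from each other. BCL2L1 fell by 0.69 in KO cells (adjusted p = 6.32e-08) and by 0.47 in EV cells (adjusted p = 9.55e-07), with all deprived libraries at 95.3 to 106 CPM and all regular libraries at 142 to 158 CPM. MCL1 stayed within 479 to 533 CPM in all 8 libraries. It was called higher in deprived KO cells at 1.08-fold (log2 0.12 ± 0.03, adjusted p = 0.00840), a call that ended without KO library a of regular medium (adjusted p = 0.0551) and, at an adjusted p of 0.0586, in a fit of these 2 groups alone. In EV cells the MCL1 difference was 0.04 ± 0.03 (adjusted p = 0.241).

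TNFRSF10B had the smallest adjusted p of the 9 members in both cell types. It rose 1.65-fold in KO cells, to 291 and 296 CPM in glucose-deprived medium against 178 and 177 CPM in regular medium (95% confidence interval 1.58 to 1.74, adjusted p = 9.57e-09). In EV cells it rose 1.70-fold, to 308 and 301 CPM against 179.8 and 178 CPM (1.63 to 1.79, adjusted p = 6.00e-09). TNFRSF10B shares 67 exon bases with RHOBTB2 on the opposite strand, whose level fell by 0.50 in KO cells and fell by 0.51 in EV cells, opposite to TNFRSF10B.

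**Figure D3:**
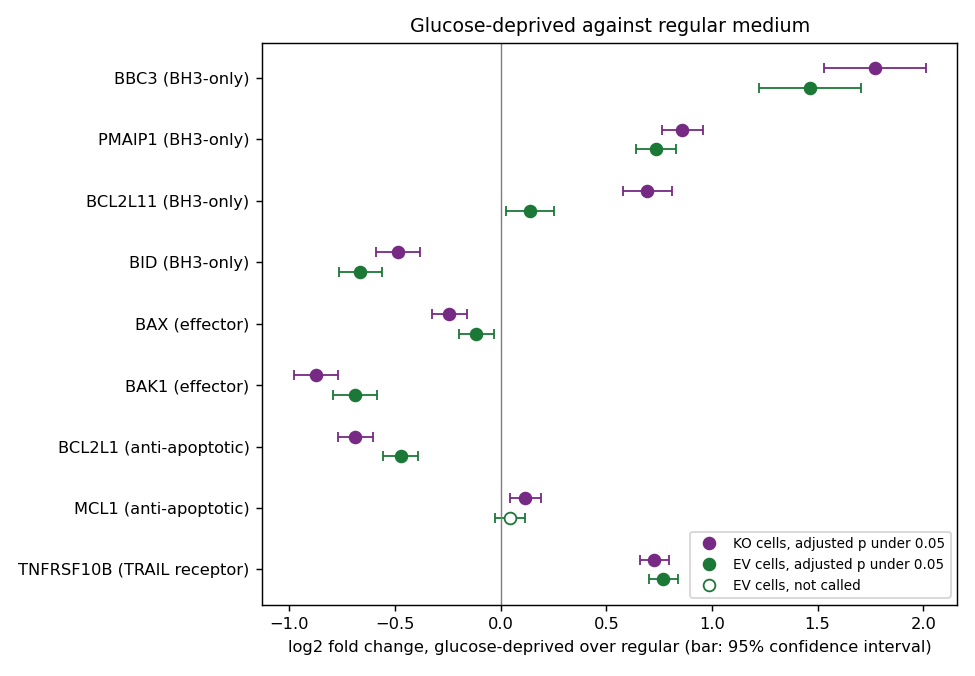
Log2 fold change of glucose-deprived over regular medium (horizontal axis) for the 9 genes in KO and EV cells, with bars for the 95% confidence interval of the limma fit and filled dots for an adjusted p under 0.05. BBC3, PMAIP1, BCL2L11 and TNFRSF10B lie right of 0 in both cell types and BID, BAX, BAK1 and BCL2L1 left of it, and the widest gap between cell types is that of BCL2L11 (0.69 in KO and 0.14 in EV cells).

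Ratios of 2 members within a library show how pro- and anti-apoptotic mRNA stood to each other; they are descriptions of mRNA shares and carry no test. PMAIP1 over MCL1 was 0.259 and 0.253 in deprived KO cells, 0.220 and 0.219 in deprived EV cells, 0.150 and 0.155 in KO cells in regular medium, and 0.137 and 0.135 in EV cells in regular medium. The groups kept that order without overlap. BCL2L11 over BCL2L1 was 0.275 and 0.304 in deprived KO cells, 0.184 and 0.188 in deprived EV cells, 0.107 and 0.115 in KO cells in regular medium, and 0.124 and 0.119 in EV cells in regular medium. Here deprived KO cells stood highest, and the KO cells of regular medium lowest. BID over BCL2L1 was likewise highest in deprived KO cells, at 0.214 and 0.220, but lowest in deprived EV cells, at 0.152 and 0.156, with the regular groups between them (0.186 and 0.191 in KO cells, 0.183 and 0.169 in EV cells). BAX over BCL2L1 was higher in the deprived groups (0.843 and 0.895 in KO cells, 0.806 and 0.861 in EV cells) than in the regular groups (0.643 and 0.633 in KO cells, 0.663 and 0.636 in EV cells). BAK1 over BCL2L1 instead was lower in the deprived groups, with means of 0.224 in KO cells and 0.206 in EV cells. In regular medium its means were 0.255 in KO cells and 0.240 in EV cells. BAK1 over MCL1 was also lower in the deprived groups, with means of 0.041 in KO cells and 0.042 in EV cells. In regular medium its means were 0.081 in KO cells and 0.069 in EV cells. BAX over BAK1 was 3.75 and 4.01 in deprived KO cells and 3.92 and 4.16 in deprived EV cells, against 2.51 and 2.48 in KO cells and 2.68 and 2.73 in EV cells in regular medium.

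**Figure D4:**
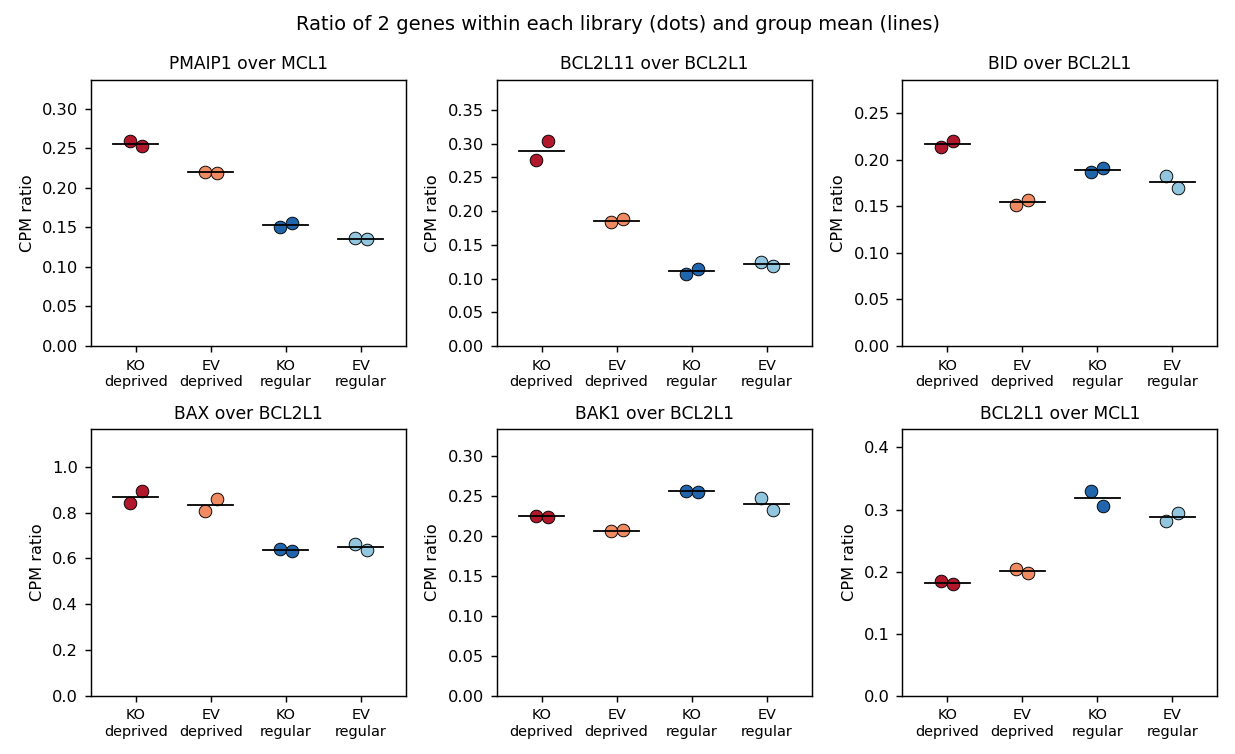
Ratio of the CPM of 2 genes (vertical axes, starting at 0) in the 8 libraries, with 1 dot a library and a line at the group mean. PMAIP1 over MCL1 and BCL2L11 over BCL2L1 are highest in deprived KO cells (means 0.256 and 0.289), and BCL2L1 over MCL1 is lower in both deprived groups (means 0.182 in KO and 0.201 in EV cells) than in the regular groups (means 0.318 in KO and 0.288 in EV cells). BAK1 over BCL2L1 is also lower in both deprived groups, with means of 0.224 in KO and 0.206 in EV cells. Its means in the regular groups are 0.255 in KO and 0.240 in EV cells.

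Factors known to regulate these genes moved in the same libraries, and their part in the members' changes was not tested. With glucose removed, DDIT3, which encodes CHOP, rose by 4.41 ± 0.04 on the log2 scale in KO cells and by 4.60 ± 0.04 in EV cells (adjusted p = 3.67e-13 in KO cells and 2.34e-13 in EV cells). ATF4 rose by 1.04 ± 0.03 in KO cells and 1.33 ± 0.03 in EV cells. ATF3, a stress factor induced by ATF4, rose by 2.75 ± 0.04 in KO cells and 2.30 ± 0.04 in EV cells. Between KO and EV cells without glucose, where PMAIP1, BCL2L11 and BID were called higher, ATF3 was higher in KO cells by 0.74 ± 0.04 (adjusted p = 1.45e-06). Neither ATF4 (-0.03 ± 0.03, adjusted p = 0.568) nor DDIT3 (-0.07 ± 0.04, adjusted p = 0.276) passed there. CDKN1A, which encodes the cell cycle inhibitor p21, was higher by 0.16 ± 0.05 (adjusted p = 0.0324), a call lost without any 1 of the 4 EV libraries or KO library b of glucose-deprived medium (adjusted p of 0.0538 to 0.250), or without the variance trend (0.0941).

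The profile of each member over the 8 libraries was compared with those of all other genes tested, by the root mean square difference of log2 CPM centred on each gene's mean. The genes named are the closest of all those tested, so small differences follow from that choice. Shared regulation was not tested. The 2 nearest genes were JMY and BMP2 for BBC3 (differences of 0.075 and 0.083, against the member's own spread of 0.817), and HERC5 and PTPRD for PMAIP1 (0.048 and 0.052, against 0.414). They were NXT2 and STK17B for BCL2L11 (0.066 and 0.070, against 0.283), and NUDC and FAM225A for BID (0.036 and 0.048, against 0.328). For the effectors they were EPN2 and GGA3 (BAX, 0.018 and 0.020, against 0.098) and ISG20L2 and ELOVL1 (BAK1, 0.038 and 0.043, against 0.399). For the anti-apoptotic genes they were POLR1A and RIC8A (BCL2L1, 0.021 and 0.024, against 0.296) and KRIT1 and ROCK1 (MCL1, 0.014 and 0.017, against 0.048), and for TNFRSF10B they were SPG11 and CADPS2 (0.030 and 0.031, against 0.375).

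Of 52 other genes of the pathway, in 6 lists, 42 were tested. Between KO and EV cells without glucose 6 were called higher and 5 lower, 26.2% of the 42 against 19.6% of all genes. Among the 11 genes of the apoptosome and the caspases, 3 were higher in KO cells and none was lower (list median 0.06), with CASP2, a stress-linked caspase gene, higher by 0.14 ± 0.04. Among 5 inhibitors of apoptosis, BIRC5 (survivin, -0.22 ± 0.03) and XIAP (-0.19 ± 0.05) were lower and none was higher (median -0.19). Of 8 genes of the death receptor pathway, CFLAR, whose product FLIP blocks caspase-8, was lower (-0.21 ± 0.04). Of 4 other anti-apoptotic family genes, BCL2L2 was lower (-0.14 ± 0.04), and of 8 other pro-apoptotic ones, BNIP3 (0.19 ± 0.04) and BOK (0.24 ± 0.07) were higher. Of 6 genes of MCL1 and NOXA turnover, the ubiquitin ligase gene MARCHF5 was higher (0.17 ± 0.05) and HUWE1, which encodes a ligase of MCL1, was lower (-0.14 ± 0.04). Of these 11 calls, that of BIRC5 was kept in every alternative and the other 10 were all lost without EV library b of glucose-deprived medium (CFLAR with an adjusted p of 0.0977). Leaving out EV library a of that medium ended 8 of them, KO library b or either EV library of regular medium 6, and KO library a of glucose-deprived medium 3. Without the variance trend 5 of them ended, and in a fit of the 2 groups alone 3. In regular medium 1 of the 42 was called, 2.38% against 7.25% of all genes. BIRC3 was higher in KO cells by 0.43 ± 0.09. That call was lost without either EV library of regular medium, without KO library b, or without the variance trend (limma, adjusted p = 0.0783).

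With glucose removed, 15 of the 42 rose and 18 fell in KO cells (78.6%, against 73.3% of all genes), and 18 rose and 21 fell in EV cells (92.9%, against 76.2% of all genes). Of the 8 other pro-apoptotic family genes tested, 5 rose and 2 fell in KO cells, and 5 rose and 3 fell in EV cells. Among them BMF, a BH3-only gene known to respond to stress, rose by 1.32 ± 0.08 in KO cells and 1.39 ± 0.08 in EV cells. BOK, an effector-like gene, fell by 0.97 in KO cells and 1.10 in EV cells. Of the 4 other anti-apoptotic ones, 1 rose and 3 fell in each cell type. The riser, BCL2A1, rose by 0.95 in KO cells and 0.97 in EV cells. It stood at 5.78 to 6.27 CPM in deprived against 3.00 to 3.26 CPM in regular medium. Of those that fell, BCL2 fell by 0.47 in KO cells and 0.41 in EV cells. In the list of the apoptosome and the caspases 1 of 11 rose and 6 fell in KO cells, and 2 rose and 8 fell in EV cells; CASP2 fell by 0.75 in KO cells and fell by 0.84 in EV cells, and CYCS, which encodes cytochrome c, fell by 0.34 in KO cells and fell by 0.47 in EV cells. In the death receptor list TNFRSF11B, a soluble receptor that can bind TRAIL, rose by 1.56 in KO cells and 1.81 in EV cells, and FADD, the adaptor that joins DR5 to caspase-8, fell by 0.84 in KO cells and 0.69 in EV cells. BIRC5 fell by 1.03 in KO cells and 0.78 in EV cells, and XIAP rose by 0.60 in KO cells and 0.71 in EV cells. All calls named by the rule for these 2 comparisons (23 in KO and 24 in EV cells) were kept in every alternative.

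**Figure D5:**
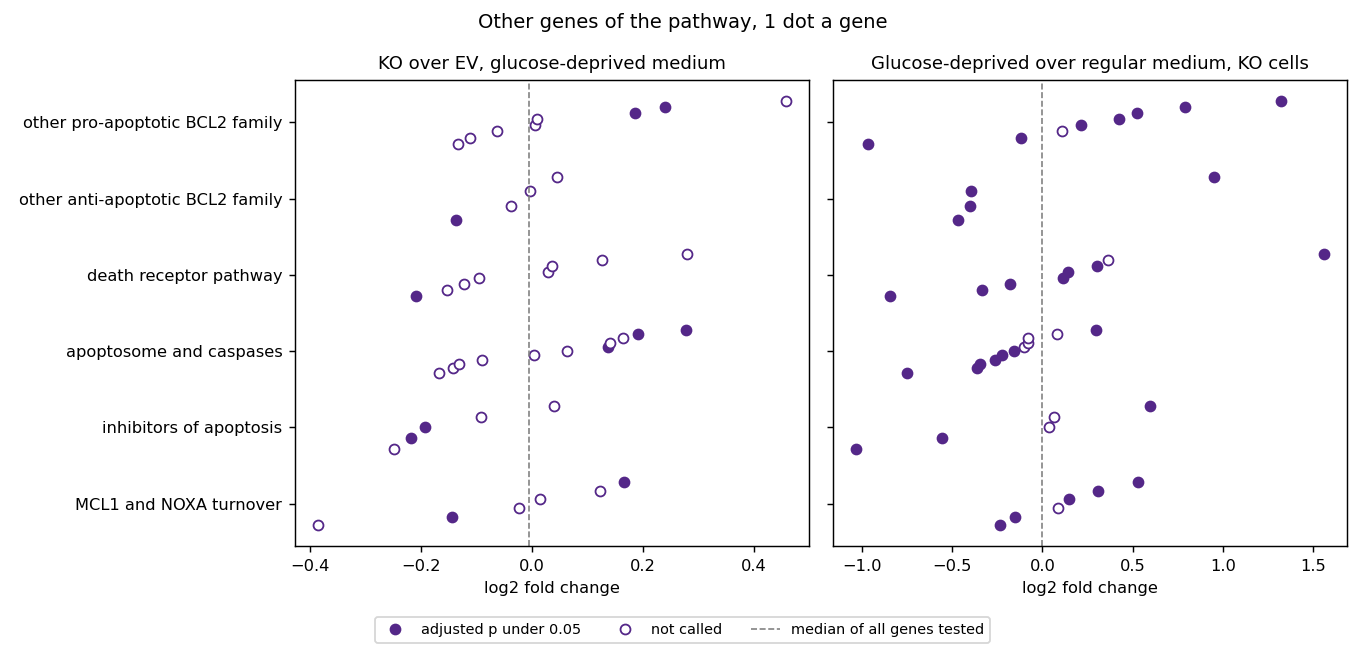
Log2 fold change (horizontal axes) of the 42 other pathway genes tested, 1 dot a gene, in 6 rows by list, for KO over EV in glucose-deprived medium and for glucose-deprived over regular medium in KO cells, with the median of all genes as a dashed line. Few dots are filled (adjusted p under 0.05) in the knockout panel, 6 higher and 5 lower, and most are filled in the deprivation panel, 15 higher and 18 lower.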

How the data were processed

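Total RNA (TRIzol) went into SMART-Seq mRNA HT and Nextera XT libraries, per the labels' protocols, which do not mark strand. HISAT2, edgeR and the GRCh38 genome are named in the submitters' processing notes without versions, and the counting tool and annotation are not given in the sources used here. The deposited values are log2 CPM by gene, a scale read from the values. In each library 100% of values gave whole reads within a tolerance of 0.05. CPM in the text is 2 to the power of the deposited value, less an offset of 0.023.

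Headers carry the group but no replicate number. Headers ending in GlcN were read as the glucose-deprived medium, which the labels do not explain. Members were found by symbol. The members and the pathway lists were chosen with earlier results of these data known.

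The 13057 genes whose log2 CPM averaged 0 or more (673 fell short) were tested with limma 3.58.1 in R 4.3.3, in 1 model of 4 group means with a variance trend (4 residual and 6.29 prior degrees of freedom). Two-sided p-values were adjusted over all genes of a contrast (Benjamini-Hochberg). The fit was tested on simulated reads, with the same spread setting for all genes and changes in the KO libraries of regular medium alone. Those settings differ from these data, so how reliable the calls here are was not tested by it. Ratios and profiles were computed in Python 3.11.15. Named were all members and, per list and contrast, up to 4 called genes by smallest adjusted p, with regulators of the members from a list. Gene coordinates are from GENCODE release 29 on GRCh38, promoters from RefSeq. Alternatives were another scaling, filters, a pseudocount, no variance trend, fits of 2 groups and leaving out each library. Some genes of the lists are not reported here.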

Additional observations from a re-analysis of the deposited data

Results flagged for a closer look

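For 7 of the genes named, the difference between KO and EV cells itself differed between the media, by an interaction term that passed (adjusted p under 0.05), as it did for 4.31% of all 13057 genes tested: 1 of 9 members, 3 of 42 other pathway genes (7.14%) and 3 of the regulators looked at. The knockout difference in glucose-deprived medium minus that in regular medium was 0.556 ± 0.073 on the log2 scale for BCL2L11 (SE, adjusted p = 0.00276), the one member among them. It was 0.453 ± 0.056 for ATF3 (adjusted p = 0.00192), which was higher in KO cells in both media. It was -0.391 ± 0.05 for TXNRD1 (adjusted p = 0.00247) and -0.291 ± 0.048 for ATF4 (adjusted p = 0.00854), which was higher in KO cells in regular medium by 0.26 ± 0.03. Among the other pathway genes it was 0.289 ± 0.069 for APAF1, the scaffold of the apoptosome (adjusted p = 0.045), -0.249 ± 0.048 for BIRC5 (adjusted p = 0.0187) and -0.675 ± 0.133 for BIRC3 (adjusted p = 0.0212). The calls of APAF1, BIRC5, BIRC3 and ATF4 were lost without the variance trend and without 1 or more single libraries; those of BCL2L11, ATF3 and TXNRD1 were kept in every alternative.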

How the results depend on the processing

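Of 621 member results under alternative settings, 594 kept their direction and their side of the threshold, 19 lost a call, 4 gained one and 4 turned sign, none of the last being called. Other filters, no variance trend, fits of 2 groups and leaving out a library of another group do not alter a fold change. Direction could not turn in those settings. Leaving out 1 library, the KO to EV difference in regular medium ran from -0.0486 to 0.0041 for BCL2L11 and from -0.062 to 0.005 for MCL1, above 0 without KO library a. In glucose-deprived medium it ran from -0.0093 to 0.0466 for BAK1, below 0 without KO library a (-0.0088) or EV library b, and from -0.0193 to 0.1054 for MIR4435-2HG, below 0 without KO library a. Without the variance trend, 1 member and 433 genes were called between KO and EV cells in regular medium (2 and 946 with it), and 223 genes for the interaction (563 with it); median-of-ratios scaling gave 1 member called lower for the interaction, BCL2L1. Leaving out 1 library gave 0 to 2 members and 168 to 1414 genes in regular medium, 3 members and 852 to 3058 genes between KO and EV cells in glucose-deprived medium, and 1 member higher, 0 to 1 lower and 147 to 1579 genes for the interaction. With median-of-ratios scaling the split of calls in regular medium was 601 higher and 397 lower, against 505 and 441. That scaling moved the KO libraries of regular medium by 0.0038 and 0.0071 on the log2 scale, and the EV libraries by -0.004 and -0.0027. The median log2 difference over all genes went from -0.003 to 0.006 there. The part of this shift in the split was not tested.

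The calls of PMAIP1, BCL2L11 and BID between KO and EV cells without glucose, and the interaction of BCL2L11, were kept in every alternative. No paired analysis was possible because the column headers carry no replicate numbers. With 2 libraries a group, small differences in sparse genes such as BBC3 are limited by counting and by the spread between libraries. For BBC3 the 2 deprived KO libraries lay 0.245 apart on the log2 scale, at 775 and 757 reads. A left-out library leaves 1 library assumed to vary like the others.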
